A study of Mus musculus with 8 samples.

Results

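Cd3e, Cd3d, Cd8a, Nkg7, Gzma, Ccl5, Cd79a, Ms4a1, Igkc and Jchain mark lymphocytes, and their transcripts were followed here in whole mouse liver. The 10 genes were chosen by symbol as markers of T cells, natural killer (NK) and cytotoxic cells, B cells and plasma cells, and all 10 were found among the 45777 genes of the expression table. In the C2-AKT livers the mean levels of 9 of the 10 genes were above those of the control livers and that of Cd8a was slightly below, but none of the differences passed the test across all genes. All 10 genes were scarce: Igkc, with the most counts, averaged 2.42 CPM (counts scaled to sequencing depth) in the controls and 3.15 CPM with C2-AKT, and the other 9 stayed below 1 on average in both groups.

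The libraries came from livers of male C57BL6 mice that all received a high-fat diet for 10 weeks from an age of 8 weeks. C2-AKT mice carried a ROSA26-C2-AKT allele and Alb-Cre, in which the albumin promoter drives Cre recombinase and so switches the allele on in hepatocytes, not in lymphocytes. Controls are labelled wild type and C2-AKT (-/-), and the labels used here do not say whether they carried Alb-Cre. Each group had 4 libraries, numbered 2 to 5 in the titles. Nothing in the labels says that the libraries came from separate animals, so p-values measure the spread between libraries.

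T cells recognise antigen through a receptor whose signal is carried by the CD3 chains, and the B cell receptor uses the CD79 chains in the same way. NK cells and CD8 T cells kill target cells with granule proteases called granzymes. Plasma cells are the antibody-secreting descendants of B cells and make immunoglobulin transcripts in very large amounts. The liver is known to hold resident NK and T cells beside its macrophages, the Kupffer cells. In RNA from whole liver, fewer cells of a type and less RNA per cell cannot be told apart.

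Libraries held 51423418 to 63784523 estimated counts, and 1 count was worth 0.0151 to 0.0216 CPM after scaling with edgeR's TMM factors. A library with no count of a gene could still hold up to 3 counts of it, or 0.0452 to 0.0649 CPM depending on the library, which covers counting error only. C2-AKT replicate 5 stood apart from the others: 9.10% of its counts fell on 10 genes of pancreatic acinar cells, against 0.000747 to 0.00271% in the other 7 libraries. The same library had no count of Cd3d, Cd8a or Gzma. The part of the pancreatic transcripts in these zeros was not tested, and values without this library stand beside several of the markers and lists that it moved.

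Both kinds of antigen receptor signal through an ITAM, a pair of tyrosines each followed by a leucine or isoleucine at the same spacing, and 3 of the marker genes encode one. The coding stretches are shown because they are the shared feature that places these T and B cell genes at the same step of the receptor pathway. They were read from the GENCODE vM21 annotation of GRCm38 on the coding strand, each is split over 2 exons, and capitals mark the codons of the 2 tyrosines and of the leucine or isoleucine that follows each.
Cd3e (chr9:44999549-45000440, minus strand): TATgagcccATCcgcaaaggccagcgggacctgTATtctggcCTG
Cd3d (chr9:44986095-44986311, plus strand): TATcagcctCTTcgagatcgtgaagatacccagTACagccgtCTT
Cd79a (chr7:24901296-24901469, plus strand): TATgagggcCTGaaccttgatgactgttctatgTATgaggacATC
Each stretch holds 15 codons, with 7 codons between the first leucine or isoleucine and the second tyrosine. Aligned without gaps, Cd3e and Cd3d had the same base at 21 of 45 positions, Cd3e and Cd79a at 20, and Cd3d and Cd79a at 17.

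Igkc encodes the constant part of the kappa light chain, the light chain of most mouse antibodies, and its transcript was the most abundant of the markers. Its coding segment is a single exon of 320 bases that every rearranged kappa transcript of a B or plasma cell carries. The first 120 bases, to which the variable part is spliced, are shown with no capitals marked.
Igkc (chr6:70726435-70726554, plus strand): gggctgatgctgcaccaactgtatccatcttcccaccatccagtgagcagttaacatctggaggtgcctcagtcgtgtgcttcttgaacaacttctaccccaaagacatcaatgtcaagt
The other genes lie, in RefSeq's GRCm38.p6 annotation, on chromosome 6 (Cd8a, 71373427 to 71379171), chromosome 7 (Nkg7, 43437138 to 43438246), chromosome 13 (Gzma, 113093824 to 113100981), chromosome 11 (Ccl5, 83525778 to 83530518), chromosome 19 (Ms4a1, 11249679 to 11266149) and chromosome 5 (Jchain, 88519809 to 88527897). Cd3e and Cd3d are neighbours on chromosome 9, where Cd3d runs from 44981769 to 44987052 and Cd3e from 44998735 to 45009663.

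Levels of different genes were compared on the authors' TPM values, which are set per transcript length. Igkc stood first with 14.6 ± 2.87 TPM (SD, n = 8 libraries of both groups), and 4588 genes of the table had a higher mean. Ccl5 followed at 1.36 ± 0.763 TPM, then Cd79a at 0.816 ± 0.411 and Jchain at 0.647 ± 0.144. The range of Igkc, from 9.14 to 18.5 TPM, lay clear of all the other markers, whereas Ccl5, Cd79a, Jchain and Nkg7 (0.574 ± 0.226) each differed from the next of these by less than the larger of the 2 SDs. Gzma (0.300 ± 0.179), Cd3e (0.298 ± 0.148), Cd3d (0.266 ± 0.200) and Ms4a1 (0.259 ± 0.0844) formed a group with nearly the same TPM. Cd8a was lowest at 0.101 ± 0.0767 TPM, with 16891 genes above it.

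In the comparison of C2-AKT with control livers, 9 of the 10 markers passed edgeR's filter on low counts and were tested together with all 15686 genes that did. None of the 9 reached an adjusted p under 0.05 in edgeR's quasi-likelihood test, against a background of 0.0255% of all genes tested in either direction (4 genes). At an unadjusted p under 0.05 there was 1 marker, Ccl5, against a background of 5.13% in either direction and 2.46% in the higher direction. DESeq2 gave an adjusted p to 5 of the markers and called none, against a background of 0.388%. At its unadjusted p under 0.05 it also had 1 marker, Ccl5, beside 848 of all genes. Fold changes were above 0 on the log2 scale for 8 of the 9 tested markers, beside 48.1% of all genes tested, and their median was 0.38 beside -0.01 over all genes. Intervals were wide: only for Igkc and Jchain did the upper 95% limit lie below a log2 fold change of 1, beside 14009 of all 15686 genes tested.

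**Figure D1:**
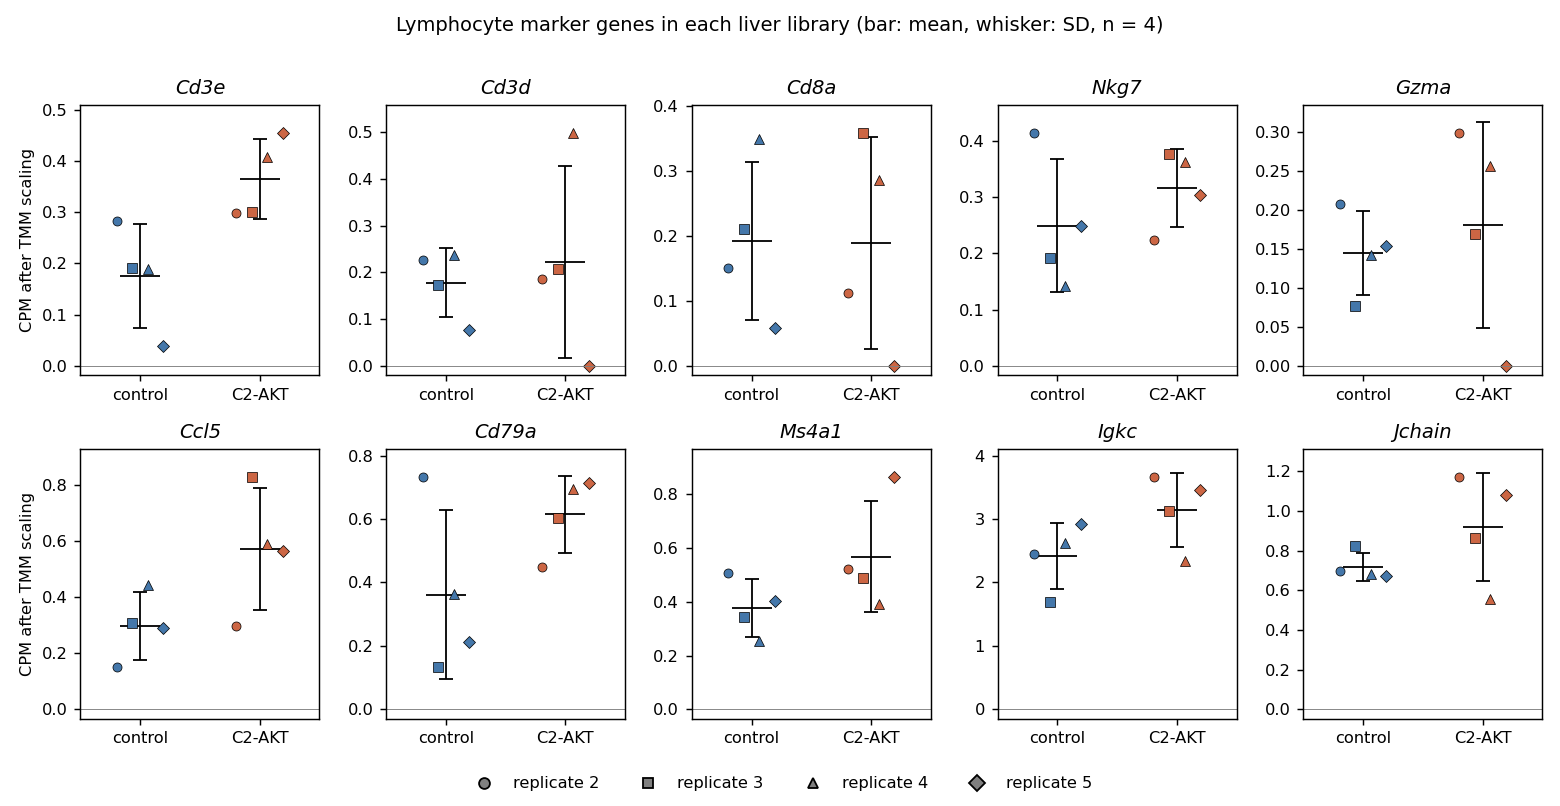
CPM of each of the 10 marker genes (vertical axes, starting at 0 and scaled per gene) in the 4 control and 4 C2-AKT libraries, with 1 point per library and a shape for each replicate number. Horizontal bars are group means and whiskers SDs; the groups are fully separate for Cd3e alone, and C2-AKT replicate 5 (diamonds) lies at 0 for Cd3d, Cd8a and Gzma.

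The T cell markers gave a mixed picture, with Cd3e higher in every C2-AKT library than in any control and Cd3d and Cd8a overlapping. Cd3e, the epsilon chain of the CD3 complex, was at 0.282, 0.192, 0.190 and 0.0384 CPM in control replicates 2, 3, 4 and 5 and at 0.298, 0.301, 0.407 and 0.454 CPM in the C2-AKT libraries in the same order. The lowest control value rested on 2 counts, and the C2-AKT libraries held 16 to 27 counts. Cd3e was the only one of the 9 tested markers whose groups did not overlap, against 2.98% of all genes tested in either direction and 1.35% in the higher direction. Means were 0.176 ± 0.101 and 0.365 ± 0.0781 CPM (SD, n = 4 each), and the log2 fold change was 1.04 ± 0.47 (SE; 95% interval -0.0028 to 2.09; edgeR adjusted p = 0.968). Without control replicate 5 the log2 fold change of Cd3e was 0.72.

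Cd3d, the delta chain that pairs with CD3 epsilon, was at 0.226, 0.172, 0.237 and 0.0768 CPM in the controls and at 0.186, 0.207, 0.498 and 0 CPM in the C2-AKT libraries. The C2-AKT group held both the highest and the lowest library, from 33 counts to none. The log2 fold change was 0.36 with a 95% interval from -1.31 to 2.02 (edgeR adjusted p = 0.9999). Leaving out C2-AKT replicate 4 turned it to -0.41, and leaving out C2-AKT replicate 5 raised it to 0.74. Cd8a, the alpha chain of the co-receptor of cytotoxic T cells, ran from 0.0576 to 0.348 CPM in controls and from 0 to 0.358 CPM in C2-AKT livers. Its means of 0.192 ± 0.122 and 0.189 ± 0.163 CPM (SD, n = 4 each) gave a log2 fold change of -0.01 with an interval from -1.76 to 1.74 (edgeR adjusted p = 0.9999). Without C2-AKT replicate 5 it was 0.37, and leaving out single libraries took it from -0.46 to 0.46.

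Other T cell transcripts were present in the library with no Cd3d and no Cd8a counts. In C2-AKT replicate 5, Cd3g, the CD3 gamma chain, was at 0.498 CPM, Cd8b1, the CD8 beta chain, at 0.195 CPM, Trac, the constant part of the receptor alpha chain, at 0.346 CPM and Trbc2, a beta chain constant part, at 0.584 CPM. Cd3e itself was at its highest there. Of the 29 other genes of T cell receptor signalling, 20 were tested, 14 were higher and 6 lower in mean, none passed edgeR's adjusted p or an unadjusted p under 0.05, and the median log2 fold change was 0.29. Single left-out libraries took that median from 0.089 (control replicate 5) to 0.45 (C2-AKT replicate 2), and over the genes of the list with a mean of at least 1 CPM it was -0.032. The lowest unadjusted p belonged to Trbc1, another beta chain constant part, whose C2-AKT libraries (0.279, 0.358, 0.422 and 0.281 CPM) were all above the controls (0.226, 0.211, 0.237 and 0.154 CPM). Groups were separate in this direction for 1.35% of all genes tested. For Trbc1 the fitted difference was 0.69 ± 0.31 (SE) on the log2 scale (edgeR adjusted p = 0.968). Below it came Lat, a scaffold of receptor signalling, at 0.72 and Thy1, a T cell surface protein, at 0.64, both with edgeR adjusted p at or above 0.994. Most counts of the list came from few genes: Themis, a T cell signalling protein, with 41.1% of its summed CPM, Zap70, the kinase that docks on phosphorylated ITAMs, with 21.6%, and Tcf7, a T cell transcription factor, with 10.9%. Themis was at 12.4 ± 4.28 CPM in controls and 14.7 ± 5.72 CPM in C2-AKT livers, and Zap70 was at 7.10 ± 0.957 and 7.12 ± 1.80 CPM (SD, n = 4 each). Per transcript length, Themis averaged 4.89 TPM and Zap70 5.14 TPM over the 8 libraries, above all the CD3 genes.

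Among the NK and cytotoxic markers, all 3 means were higher in C2-AKT livers, and Ccl5 differed most. Ccl5, a chemokine made by activated T and NK cells that draws leukocytes, was at 0.150, 0.307, 0.443 and 0.288 CPM in control replicates 2 to 5 and at 0.298, 0.828, 0.588 and 0.563 CPM in the C2-AKT libraries. Of the C2-AKT libraries, 3 were above every control, and replicate 2 lay within the control range. Means were 0.297 ± 0.120 and 0.569 ± 0.217 CPM (SD, n = 4 each), from 8 to 28 counts per control library and 16 to 44 per C2-AKT library. The log2 fold change was 0.92 ± 0.40 (SE), with an interval from 0.03 to 1.82 and an unadjusted p of 0.0447, which edgeR's adjustment over all genes took to 0.956. Leaving out control replicate 2 gave an unadjusted edgeR p of 0.103, leaving out C2-AKT replicate 3 gave 0.138, and the set that lacked C2-AKT replicate 5 gave 0.067. It was 0.015 without C2-AKT replicate 2 and 0.023 without control replicate 4, with edgeR adjusted p of 0.62 and 0.82. Each of the remaining left-out libraries gave an unadjusted edgeR p of 0.075 to 0.080. The log2 fold change stayed between 0.69 and 1.19 whichever single library was left out.

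Nkg7, a membrane protein of cytotoxic granules, was at 0.414, 0.192, 0.142 and 0.249 CPM in controls and at 0.224, 0.377, 0.362 and 0.303 CPM in C2-AKT livers. The highest library was a control and the C2-AKT values lay within the control range. Its log2 fold change was 0.35, with an interval from -0.52 to 1.22 (edgeR adjusted p = 0.9999), and it ran from 0.15 without control replicate 4 to 0.71 without control replicate 2. Gzma, which encodes granzyme A, was at 0.207, 0.0766, 0.142 and 0.154 CPM in controls and at 0.298, 0.169, 0.256 and 0 CPM in C2-AKT livers, with 16, 9, 17 and 0 counts in the latter. It did not pass the count filter, since only 3 of the 8 libraries reached 0.182 CPM and the filter asked for 4. In an edgeR fit without that filter its log2 fold change was 0.33, with an interval from -1.44 to 2.1 and an adjusted p of 0.987.

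Of 25 other NK and cytotoxic genes, 10 were tested, 6 were higher and 4 lower in mean, none passed edgeR's adjusted p, 1 had an unadjusted p under 0.05, and the median log2 fold change was 0.34 (0.19 without C2-AKT replicate 4). That gene was Ccl4, a chemokine of activated T and NK cells, and it lay in the opposite direction: 0.363 ± 0.104 CPM in controls and 0.199 ± 0.0874 CPM in C2-AKT livers (SD, n = 4 each). The difference was -0.89 ± 0.39 (SE) on the log2 scale (edgeR adjusted p = 0.966), and C2-AKT replicate 5 at 0.325 CPM overlapped the controls. Its relative Ccl3 differed by -1.10 on the same scale (edgeR adjusted p = 0.9999). Ctsw, a protease of cytotoxic cells, and Il2rb, a receptor chain for IL-2 and IL-15, had log2 fold changes of 0.69 and 0.71 at the same adjusted p. Klrb1a and Klrg1, receptors of NK and effector T cells, had no count in any of the 8 libraries.

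The B cell markers Cd79a and Ms4a1 were both higher on average in C2-AKT livers, with overlapping groups. Cd79a, the alpha chain of the B cell receptor signalling pair, was at 0.734, 0.134, 0.364 and 0.211 CPM in controls and at 0.447, 0.603, 0.694 and 0.714 CPM in C2-AKT livers. The highest single library was control replicate 2, and the other 3 controls lay below all C2-AKT libraries. C2-AKT against control gave 0.76 ± 0.47 (SE) on the log2 scale, with an interval from -0.28 to 1.80 (edgeR adjusted p = 0.9999). Single left-out libraries took this value from 0.49 (control replicate 3) to 1.36 (control replicate 2). Ms4a1, which encodes the B cell surface protein CD20, was at 0.508, 0.345, 0.253 and 0.403 CPM in controls and at 0.522, 0.490, 0.392 and 0.866 CPM in C2-AKT livers. C2-AKT replicate 5 was the highest library for both genes within its group. The log2 fold change of Ms4a1 was 0.58 ± 0.34 (SE), with an interval from -0.18 to 1.34 (edgeR adjusted p = 0.9999), and without C2-AKT replicate 5 it was 0.31.

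Of 21 other B cell genes, 17 were tested, 11 were higher and 6 lower in mean, none passed edgeR's adjusted p or an unadjusted p under 0.05, and the median log2 fold change was 0.05. This median moved with single libraries, to 0.24 without control replicate 2, 0.18 without control replicate 4 and 0.099 without C2-AKT replicate 5. Cd79b, the partner chain of Cd79a, was at 0.448 ± 0.151 CPM in controls and 0.523 ± 0.267 CPM in C2-AKT livers (SD, n = 4 each). Fcer2a, the low-affinity IgE receptor CD23 of mature B cells, had the lowest unadjusted p and a log2 fold change of 1.07 ± 0.49 (SE; edgeR adjusted p = 0.974). Bank1, a B cell scaffold, was at 0.24 and Fcrla, an Fc receptor-like protein of B cells, at 0.41 on the log2 scale, each with an edgeR adjusted p of 0.9999. Ralgps2, a guanine nucleotide exchange factor, made up 53.3% of the summed CPM of this list and Ighm, the IgM heavy chain constant gene, 12.9%.

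**Figure D2:**
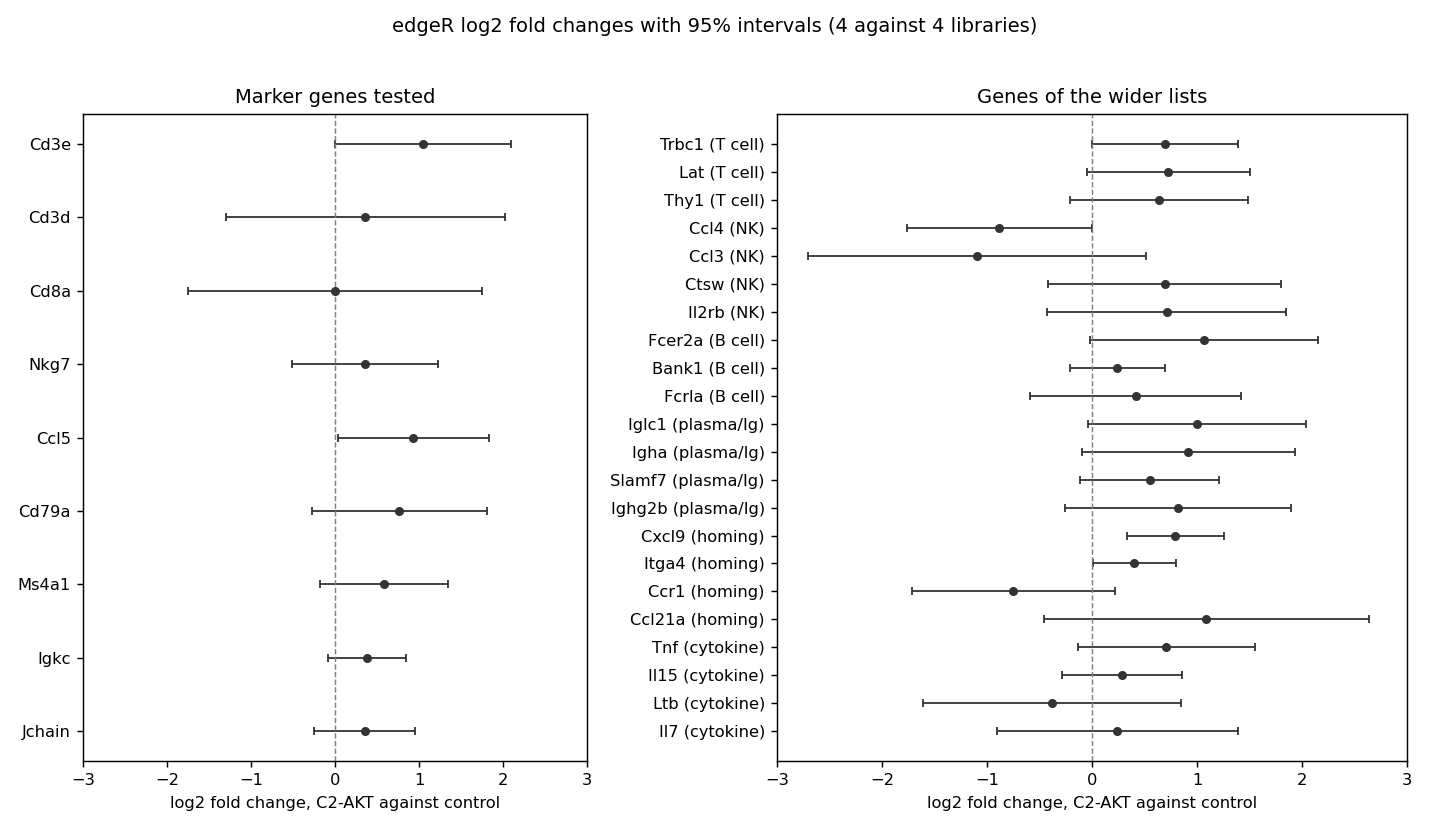
edgeR log2 fold changes of C2-AKT against control livers (horizontal axes) with 95% intervals, for the 9 marker genes that were tested (left) and for 22 genes with the lowest unadjusted p in 6 wider lists, at most 4 from each (right). Points to the right of the dashed line were higher in C2-AKT livers; 8 of the 9 markers lie there, and the interval of Cxcl9 on the right, from 0.33 to 1.25, lies furthest from 0.

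The immunoglobulin and plasma cell markers had the most counts and the narrowest intervals. Igkc was at 2.45, 1.69, 2.63 and 2.92 CPM in control replicates 2 to 5 and at 3.67, 3.13, 2.34 and 3.46 CPM in the C2-AKT libraries, from 88 to 197 counts per library. All C2-AKT libraries but replicate 4 were above every control. Means were 2.42 ± 0.525 and 3.15 ± 0.586 CPM (SD, n = 4 each), and the log2 fold change was 0.38 ± 0.21 (SE), with an interval from -0.09 to 0.85 (edgeR adjusted p = 0.995). Jchain, the joining chain that links IgA and IgM units into larger antibodies, was at 0.696, 0.824, 0.680 and 0.672 CPM in controls and at 1.17, 0.866, 0.558 and 1.08 CPM in C2-AKT livers. The C2-AKT group held the lowest library and the 3 highest. The log2 fold change of Jchain was 0.35 ± 0.27 (SE), its interval running from -0.25 to 0.95 (edgeR adjusted p = 0.9999).

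Of 21 other plasma cell and immunoglobulin genes, 17 were tested, 11 were higher and 6 lower in mean, none passed edgeR's adjusted p or an unadjusted p under 0.05, and the median log2 fold change was 0.11. The sign of that median rested on C2-AKT replicate 5, without which it was -0.010, and it was 0.28 without control replicate 3. Igha, the constant gene of IgA, the antibody of mucosal surfaces, was at 1.17, 0.230, 1.23 and 1.61 CPM in controls and at 1.40, 2.22, 1.70 and 2.71 CPM in C2-AKT livers. C2-AKT replicate 2 lay within the control range and the other 3 above it, the highest being replicate 5, the library with pancreatic transcripts. The log2 fold change was 0.91 ± 0.46 (SE; edgeR adjusted p = 0.994), and a value without that library is not given here. Ighg2b, an IgG constant gene, had 0.82, Iglc1, a lambda light chain constant gene whose reads can be shared with its near-identical copies, had 0.99, and Slamf7, a surface protein of plasma and NK cells, had 0.55 on the log2 scale, with edgeR adjusted p between 0.990 and 0.9999. Ighm, in contrast, was at 4.77 ± 0.675 and 4.89 ± 1.25 CPM (SD, n = 4 each), a log2 fold change of 0.04 with an interval from -0.39 to 0.46. The summed CPM of this list came almost wholly from Pigr, the receptor that carries IgA and IgM across epithelial cells and is expressed by liver cells, with 71.1%, Xbp1, a transcription factor of secretory cells, with 15.4%, and Creld2, an endoplasmic reticulum protein, with 10.6%.

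**Figure D3:**
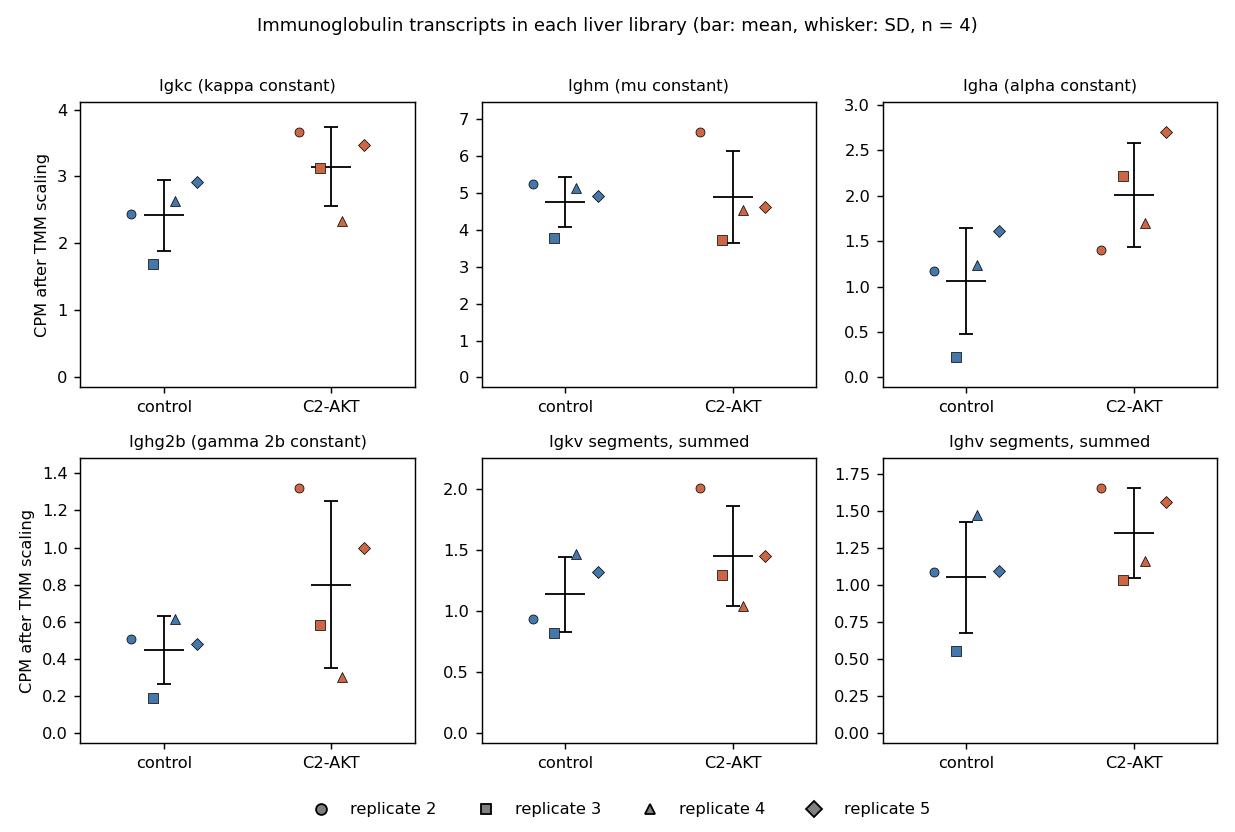
CPM (vertical axes, starting at 0 and scaled per panel) of 4 immunoglobulin constant genes and of the summed kappa (Igkv) and heavy chain (Ighv) variable segments in the 4 control and 4 C2-AKT libraries, with a shape for each replicate number. Bars are means and whiskers SDs; Ighm has nearly equal means of 4.77 and 4.89 CPM, and for Igkc all C2-AKT libraries but replicate 4 (triangle) lie above the controls.

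Summed over each role, the markers gave the following levels, which are descriptions without a test. The T cell markers summed to 0.545 ± 0.262 CPM in controls and 0.777 ± 0.325 CPM in C2-AKT livers, a ratio of 1.42, and without C2-AKT replicate 5 that group's mean was 0.884 ± 0.298 CPM. As a log2 ratio, 0.51 for all libraries, the T cell difference was 0.21 without control replicate 5, 0.23 without C2-AKT replicate 4 and 0.73 without control replicate 4. The NK and cytotoxic markers summed to 0.691 ± 0.0842 and 1.07 ± 0.268 CPM, a ratio of 1.54, and the C2-AKT mean was 1.13 ± 0.284 CPM without replicate 5. For these the C2-AKT libraries (0.820, 1.37, 1.21 and 0.866 CPM) were all above the controls (0.771, 0.575, 0.728 and 0.691 CPM). The B cell markers summed to 0.738 ± 0.342 and 1.18 ± 0.271 CPM, a ratio of 1.60, with control replicate 2 (1.24 CPM) inside the C2-AKT range. As a log2 ratio the B cell difference was 0.68, and 1.05 without control replicate 2. It was 0.52 without control replicate 3 and 0.51 without C2-AKT replicate 5. The immunoglobulin and plasma cell markers summed to 3.14 ± 0.457 and 4.07 ± 0.859 CPM, a ratio of 1.30, with C2-AKT replicate 4 (2.89 CPM) inside the control range. All 10 markers together ran from 4.14 to 5.81 CPM in controls and from 6.38 to 7.44 CPM in C2-AKT livers, and without Igkc from 2.15 to 3.37 and from 3.56 to 4.20 CPM. The highest library was C2-AKT replicate 5 with Igkc and C2-AKT replicate 3 without it. How often sums over other genes separate the groups in this way was not computed.

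**Figure D4:**
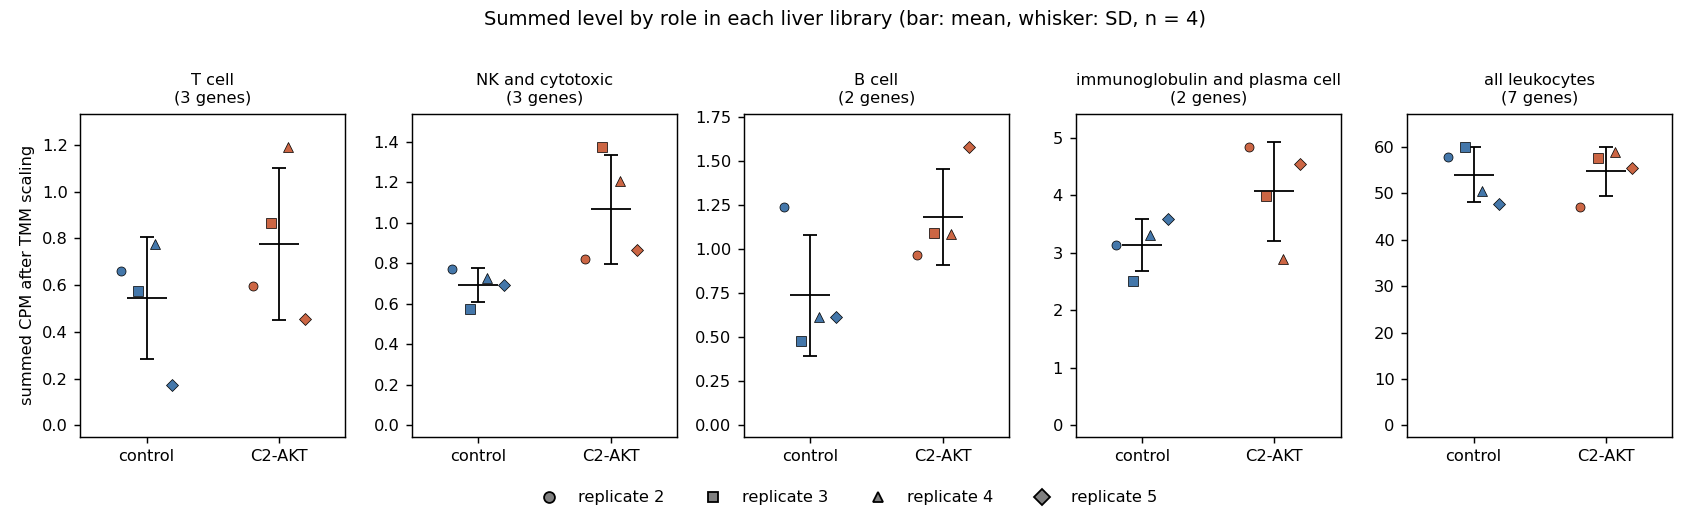
Summed CPM (vertical axes, starting at 0) of the marker genes of each role, and of 7 genes shared by all leukocytes, in the 4 control and 4 C2-AKT libraries, with bars for means, whiskers for SDs and a shape for each replicate number. The NK and cytotoxic sums do not overlap between the groups, while the sums of the all-leukocyte genes have means of 54.0 and 54.7 CPM.

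Genes shared by all leukocytes had nearly the same level in both groups. Their 7 genes summed to 54.0 ± 5.89 CPM in controls and 54.7 ± 5.26 CPM in C2-AKT livers (SD, n = 4 each), and Ptprc, which encodes the pan-leukocyte protein CD45, had a log2 fold change of -0.01 with an interval from -0.29 to 0.27. The 12 Kupffer cell and macrophage genes summed to 419 to 543 CPM in controls and 431 to 486 CPM in C2-AKT livers, with 2 higher and 10 lower in mean and a median of -0.09 on the log2 scale. Neutrophil genes had a median of -0.37 and sums of 5.10 to 8.79 against 4.07 to 6.67 CPM, while monocyte genes had -0.06, dendritic cell genes 0.05, sinusoidal endothelial genes 0.05, stellate cell genes 0.05, cholangiocyte genes -0.08, hepatocyte genes 0.02 and erythroid genes 0.13. Adipocyte genes had a median of -1.33, with all 3 tested genes lower in mean, and pancreatic acinar genes 10.99 over 2 tested, the latter high in C2-AKT replicate 5.

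Genes listed as markers of lymph node stroma were also mostly higher in mean, and their part in the differences was not tested. Of the 7 genes, 4 were tested and 3 were higher in mean, their median was 0.67 on the log2 scale, and the list summed to 0.997 to 2.13 CPM in controls and 1.75 to 2.66 CPM in C2-AKT livers. Fcer2a (1.07 on the log2 scale) and Cr2 (-0.04) belong to this list and to the B cell list. Ccl21a (1.09), Cxcl13, Ccl19 and Madcam1 also belong to the list of homing genes. The list is thus not a set of genes separate from the others. Glycam1, which defines high endothelial venules, was at 0 in all libraries.

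Among genes that guide lymphocytes into tissue, Cxcl9 and Itga4 had the lowest unadjusted p. Of 27 chemokine, receptor and homing genes, 21 were tested, 15 were higher and 6 lower in mean, none passed edgeR's adjusted p, 2 had an unadjusted p under 0.05, and the median log2 fold change was 0.16 (0.060 without control replicate 5 and 0.092 without C2-AKT replicate 2). Cxcl9, an interferon-induced chemokine that attracts T cells through CXCR3, was at 6.56, 8.80, 4.72 and 4.45 CPM in controls and at 10.9, 9.13, 11.7 and 10.6 CPM in C2-AKT livers. The groups did not overlap, beside 1.35% of all genes tested in the higher direction. The log2 fold change of Cxcl9 was 0.79 ± 0.21 (SE), with an interval from 0.33 to 1.25 and an edgeR adjusted p of 0.710. Itga4, an integrin chain that lets lymphocytes adhere to vessel walls, was at 3.29 ± 0.620 and 4.35 ± 0.651 CPM (SD, n = 4 each), with a log2 fold change of 0.40 ± 0.18 (SE; edgeR adjusted p = 0.959). Ccr1, a receptor for Ccl5 and Ccl3, had -0.75 and Ccl21a, a chemokine of lymphoid tissue, had 1.09 on the log2 scale, both with an edgeR adjusted p of 0.9999. Ccl21a was highest in C2-AKT replicate 5, at 0.454 CPM.

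Of 18 lymphocyte cytokine genes, 7 were tested, 5 were higher and 2 lower in mean, none passed edgeR's adjusted p or an unadjusted p under 0.05, and the median log2 fold change was 0.17 (0.043 without control replicate 4 and -0.054 without C2-AKT replicate 5). Il2, Il4, Il5, Il13, Il17a and Il22, cytokines of activated T cells, had no count in any library. Tnf had a log2 fold change of 0.71 and Il15, which sustains NK and memory CD8 T cells, 0.28, with edgeR adjusted p of 0.995 and 0.9999. Ltb, a lymphotoxin chain, had -0.38 and Il7, a growth factor of lymphocytes, 0.24, both with an edgeR adjusted p of 0.9999. Over all 6 lists, 92 of 141 genes were tested, 62 were higher and 30 lower in mean, and edgeR called none. At an unadjusted p under 0.05 there were 2 higher (Cxcl9 and Itga4) and 1 lower (Ccl4), 3 of 92 beside the 5.13% of all genes tested. No gene of these lists was called in the 21 alternative settings either, DESeq2 included.

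The spread among libraries of 1 group often exceeded counting error. Expressed as the chi-square of the counts per degree of freedom, where 1 is the spread of counting alone, it was 10.3 for Cd79a in controls and 9.84 for Cd3d in C2-AKT livers. Igkc had 5.99 in controls and 6.70 in C2-AKT livers. Jchain in controls, at 0.378, Nkg7 in C2-AKT livers, at 0.834, and Cd3e in C2-AKT livers, at 0.862, varied no more than counting alone.

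Each marker was also matched to the genes whose log2 CPM followed it most closely over the 8 libraries, among 13780 genes that averaged 0.5 CPM or more. The closest were Ttll5 (Pearson's r = 0.99) for Cd3e, Unc93b1 (0.97) for Cd3d, C1ra (0.96) for Cd8a, Ces1c (0.95) for Nkg7 and Mss51 (0.98) for Ccl5. For the other markers they were Naaladl2 (0.94) for Cd79a, Cyp39a1 (0.95) for Ms4a1, Pla2g7 (0.97) for Igkc and Gm14373 (0.94) for Jchain. The next closest were Samd12 for Cd3e, Gm13165 for Cd3d, Lmntd2 for Cd8a, St8sia4 for Nkg7, Fam177a for Ccl5, Dennd4a for Cd79a, Amy1 for Ms4a1, Cask for Igkc and Gm38863 for Jchain. With so many genes and 8 points that share each library's depth and composition, these values are descriptions only.

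**Figure D5:**
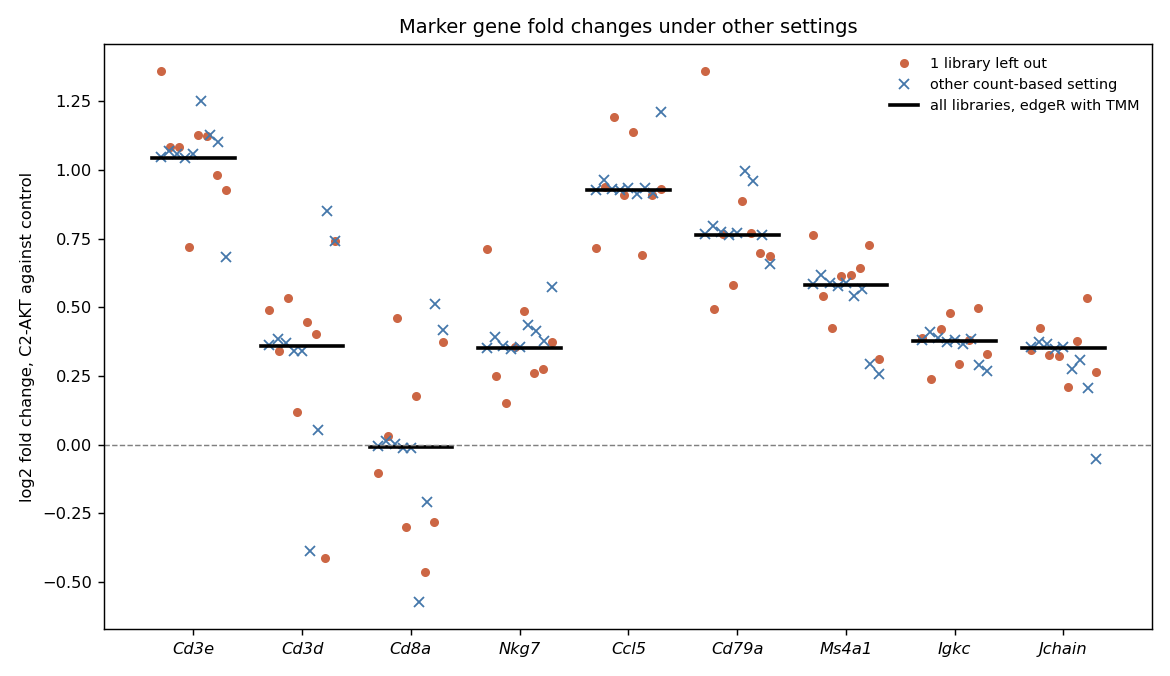
Log2 fold changes of the 9 tested marker genes (vertical axis) in the fit with all libraries (black bars), in fits that leave out 1 library (circles) and in other count-based settings (crosses). Ccl5, Cd3e, Cd79a, Ms4a1, Igkc and Nkg7 stay above 0 in all of them. Jchain falls below 0 only with the titles ending in 1 alone, and Cd3d and Cd8a fall on both sides of 0.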

How the data were processed

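PolyA RNA of mouse liver was sequenced in 8 libraries. The submitters' processing notes name HISAT2 2.1.0 and StringTie 2.1.3b with GRCm38/mm10, besides Trimmomatic and bcl2fastq 2.20.0. The sources used here do not give how reads were counted, or whether by strand, so reads shared by near-identical immunoglobulin and receptor genes may be split. The deposited table holds, per gene and library, estimated counts given as whole numbers. The authors also deposited FPKM and TPM values, per the file headers. From the counts, edgeR 4.0.16 (R 4.3.3) kept genes at 0.182 CPM or more in at least 4 libraries (filterByExpr), scaled them by TMM and fitted the quasi-likelihood test, two-sided and without covariates, with Benjamini-Hochberg adjustment over 15686 genes and a threshold of 0.05; intervals are 95%. CPM of filtered genes use the same scaling. The fit was tested on simulated data in which only genes averaging 1 CPM or more were changed, by more than any marker's fold change. Among the markers only Igkc averaged that much, so the simulation does not show how well changes of the markers' size and level would be found. Alternatives used DESeq2 1.42.0, limma 3.58.1, other scalings and filters, deposited TPM or FPKM with pseudocounts of 1 and 0.1, the title endings and leaving out each library.

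The members and lists were chosen with earlier results of these data known. All 10 markers are named; from each list, genes past the threshold or otherwise the 4 with the lowest unadjusted p are named as values, and for likeness the 2 closest genes; 2 of the list genes are not reported here. Genes of the lists given only for their levels, and genes at 0, were named beyond that rule after their values were seen. Sequences come from GENCODE vM21 and the matching genome, and gene positions from RefSeq GRCm38.p6.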

Additional observations from a re-analysis of the deposited data

Results flagged for a closer look

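Among 110 sets of 4 libraries of 1 group checked for a single library far from the other 3, 6 had one, where chance alone gives about 1 in 20. Jchain in control replicate 3 (0.824 CPM) lay above the other controls, which were at 0.672 to 0.696 CPM. Control replicates 3 and 4 both held 43 counts of it. The chi-square per degree of freedom of the controls was 0.378, so this gap was no larger than counting error. The summed T cell list was low in C2-AKT replicate 2 (23.9 CPM). Themis, with 41.1% of that list's summed CPM, was at 6.45 CPM in this library, beside a C2-AKT mean of 14.7 CPM. The T cell markers summed to 0.596 CPM there, between C2-AKT replicate 5 (0.454 CPM) and replicates 3 and 4 (0.866 and 1.19 CPM). The summed dendritic cell list stood apart in C2-AKT replicate 4 (8.64 CPM). In C2-AKT replicate 5 the summed acinar list was at 106278 CPM, the summed erythroid list at 354 CPM and Tnf at 0.281 CPM.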

How the results depend on the processing

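Under 21 alternative settings none of the markers reached an adjusted p under 0.05, and the lowest was 0.552 (edgeR, Cd3e, with the title ending as a term). At an unadjusted p under 0.05 there were 0 to 3 markers, beside 584 to 1373 of all genes tested. The 3 came with limma on log2(TPM + 1), where 600 of 15686 genes had such a p. Log2 fold changes of Ccl5 (0.37 to 1.21), Cd3e (0.13 to 1.36), Cd79a (0.22 to 1.36), Ms4a1 (0.06 to 0.76), Igkc (0.24 to 0.50) and Nkg7 (0.08 to 0.71) kept their direction in each setting that gave them a value, including log2(value + 1) scales, which understate low genes. Jchain reversed only with the titles ending in 1 alone (-0.051). Cd3d reversed with limma-voom (-0.39), with limma on log2(FPKM + 0.1) (-0.025) and, among fits without 1 library, which ran from -0.41 to 0.74, without C2-AKT replicate 4. Cd8a, near 0, turned positive with library totals (0.015), upper-quartile factors (0.0031), log2(TPM + 1) (0.011), log2(FPKM + 1) (0.0035), log2(FPKM + 0.1) (0.0066), the title ending as a term (0.51) and titles ending in 1 alone (0.42), and ran from -0.46 to 0.46 without 1 library. The term for the title ending takes C2-AKT replicate 5, alone in its ending, out of the comparison. For these reversals beyond that the cause was not tested.

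Over all genes, 0 were called higher and 4 lower in C2-AKT livers. DESeq2 called 29 and 27, library totals of the filtered genes 1 higher, and the title ending as a term 1 higher. Titles ending in 1 alone called 17 lower, and fits without 1 library 0 to 3 higher and 1 to 16 lower. The cytokine list's median of 0.17 became 0.024 with a mean of at least 1 CPM, 0.014 with limma-voom, 0.029 with log2(TPM + 1), 0.014 with log2(FPKM + 1), -0.070 with the title ending as a term, 0.030 with titles ending in 1 alone and -0.054 to 0.27 without 1 library. The other list medians moved by less than 1 SD between libraries of the list's mean log2 CPM, yet some changed sign: the T cell list's 0.29 was -0.032 over genes averaging 1 CPM or more, and the plasma cell list's 0.11 was -0.071 with titles ending in 1 alone and -0.010 without C2-AKT replicate 5. A filter at a mean of 1 CPM leaves only Igkc among the markers.

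The labels do not say whether the shared replicate numbers pair the libraries. Deviations of control and C2-AKT libraries with the same number correlated at -0.131, -0.0155, 0.0692 and -0.0635. No control library correlated best with the C2-AKT library of its own number. With 4 libraries per group these values cannot exclude a pairing. With the replicate block, 0 genes were called higher and 4 lower, the cytokine median was 0.035 and the markers' median log2 fold change 0.41. Igkc had 88 counts or more in each library and the other markers 63 or fewer, with none for Cd3d, Cd8a and Gzma in C2-AKT replicate 5.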

Other observations

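Variable segments of the antigen receptors, chosen for description after their values were seen, add to the constant genes. Of 162 kappa variable (Igkv) segments in the table, 66 had a count, and of 183 heavy chain (Ighv) segments 73 had one, with 568 and 530 counts over the 8 libraries. No segment dominated: the most frequent, Igkv1-110 and Ighv6-3, took 9.33% and 10.9% of their kind. The Igkv segments summed to 0.941, 0.824, 1.47 and 1.32 CPM in controls and 2.01, 1.30, 1.04 and 1.45 CPM in C2-AKT livers. The Ighv sums were 1.05 ± 0.377 and 1.35 ± 0.302 CPM (SD, n = 4 each). Both sums overlapped between the groups. Receptor beta (Trbv) segments had 71 counts over 10 of 35 segments, at 0.0929 ± 0.0892 CPM in controls and 0.225 ± 0.0771 CPM in C2-AKT livers. The lambda (Iglv) and receptor alpha (Trav) segments had lower means with C2-AKT: 0.239 ± 0.0978 against 0.210 ± 0.176 CPM for Iglv, with 96 counts, and 0.0454 ± 0.0326 against 0.00754 ± 0.0151 CPM for Trav, with 12 counts.

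Ighg1 and Ighg3, the constant genes of IgG1 and IgG3, were singled out after their values were seen, and lay in opposite directions. Ighg1 had no count in any control library, which allows up to 0.0475 to 0.0576 CPM per library, and was at 0.0373, 0.113, 0.106 and 0.0433 CPM in the C2-AKT libraries, 17 counts in all. The lowest of these lie within the limit that a count of 0 allows. Ighg3, with 20 counts, was at 0 CPM in control replicates 2 and 3, 0.158 CPM in control replicate 4 and 0.154 CPM in control replicate 5. In C2-AKT livers Ighg3 was at 0.0373 CPM in replicate 2 and at 0 in the other 3.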
